A study of Mus musculus with 12 samples.

Results

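The CXC chemokine ligands were followed as 10 genes, namely Cxcl1, Cxcl2, Cxcl3, Ppbp, Pf4, Cxcl9, Cxcl10, Cxcl16, Cxcl14 and Cxcl13, picked by gene symbol from the 55401 gene rows of each count table. Where a symbol stood on several rows, the row with the most counts was taken. All 10 passed the filter on low counts in both comparisons. RNA of tumor-associated macrophages (TAMs) sorted from mouse melanomas was sequenced in bulk, in 4 groups of 3 samples. The first table asks how AMPK, a kinase that senses low cellular energy, shapes TAMs. The second asks how TAMs differ between early and late tumors.

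By the labels, WT samples came from AMPKfl/fl mice, a floxed AMPK line with no cre allele named. AMPK-KO samples came from AMPKfl/flLyz2cre/cre mice, in which the recombinase is driven by the Lyz2 locus and so acts in macrophages, monocytes and neutrophils rather than in TAMs alone. Titles were used for this genotype, since the genotype entries of AMPK-KO replicates 2 and 3 give the Lyz gene another number. Early-stage samples were taken at day 8 and late-stage samples at day 15 from mice labelled WT, with no flox or cre allele named. The treatment entry of every sample reads Non. By the study's methods, female C57BL/6 mice and mice of the floxed line, all of 5 weeks, carried subcutaneous B16-F10 melanoma, a mouse melanoma cell line, tumors of WT and AMPK-KO mice were taken at day 15, and TAMs were gated as CD45+CD11b+Ly6C-Ly6G-F4/80+. Whether a sample pooled several mice is not given in the sources used here. The p-values therefore set each group difference against the spread between these samples only.

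Library totals ran from 71019494 to 84470374 counts. Prkaa1, which encodes the targeted catalytic subunit, was at 68.8, 62.8 and 63.3 CPM (read counts scaled to a common library total) in WT and at 47.0, 40.9 and 40.8 CPM in AMPK-KO samples, a log2 fold change of -0.60 (edgeR adjusted p = 2.26e-04). Lyz2 was at 9.16 to 13.5 CPM in the samples labelled WT and at 9.16 to 13.5 CPM in AMPK-KO samples, against 1092 to 3009 CPM in the early-stage and late-stage samples. Lyz2cre is an insertion into Lyz2 that interrupts this gene, and its level did not separate the samples labelled WT from the cre samples. Whether the mice labelled WT also carried cre was not tested, and each AMPK-KO against WT value below compares the samples as labelled, which differed in Prkaa1. Summed counts of 4 Y-linked genes were 9229 to 12183 per sample in the first table, 3435 to 4035 in early-stage and 0 to 4 in late-stage samples, so tumor stage and the sex of the mice cannot be told apart. The Y-linked counts of the early-stage samples go against the female C57BL/6 mice named in the methods, which leave the sex of the floxed mice unclear. Macrophage markers such as Adgre1, Csf1r and C1qa were abundant in every group, with 8295 to 12422 CPM summed over 8 genes. By group the sums were 11043 to 12422 CPM in WT, 10628 to 11197 in AMPK-KO, 8295 to 10621 in early-stage and 11257 to 11405 in late-stage samples. Every early-stage sum lay below every late-stage sum, with early-stage replicate 3 the lowest. RNA of fewer expressing cells and less RNA per cell cannot be told apart in these bulk samples.

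Chemokines are small secreted proteins that steer leukocytes along a gradient, and the CXC ligands act through G protein-coupled receptors named Cxcr. Cxcl1, Cxcl2, Cxcl3 and Ppbp draw neutrophils through Cxcr2, whereas Cxcl9 and Cxcl10 are induced by interferon-gamma and draw T cells and NK cells through Cxcr3. Cxcl16 is made as a membrane-bound ligand of Cxcr6, Cxcl13 draws B cells through Cxcr5, Pf4 is the platelet factor that some tissue macrophages also make, and Cxcl14 is a ligand without a settled receptor.

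Most of the members lie in 2 clusters of chromosome 5 (GRCm38). Ppbp (chr5:90768518-90770063), Pf4 (chr5:90772435-90773383), Cxcl3 (chr5:90786103-90789600), Cxcl1 (chr5:90891241-90893115) and Cxcl2 (chr5:90903871-90905938) lie on the plus strand with Cxcl5 and Cxcl15 within 146.579 kb. Cxcl9 (chr5:92321347-92328079) and Cxcl10 (chr5:92346638-92348889) lie on the minus strand beside Cxcl11, the 3 genes spanning 44.139 kb. Cxcl13 lies further along the same chromosome (chr5:95956951-95961068), Cxcl14 on chromosome 13 (chr13:56288643-56296551) and Cxcl16 on chromosome 11 (chr11:70453983-70459984). The 250 bases before the RefSeq start site (GRCm38.p6) are printed for the members that draw neutrophils and for the Cxcr3 ligands Cxcl9 and Cxcl10, because these sets moved in opposite directions in AMPK-KO TAMs. Capitals mark matches, on either strand, to the kappaB consensus that NF-kappaB binds and to the interferon-stimulated response element (ISRE), which is GAAA, any 2 bases and GAAA. The windows are chr5:90890995-90891244 for Cxcl1, chr5:90903649-90903898 for Cxcl2, chr5:90785851-90786100 for Cxcl3 and chr5:90768268-90768517 for Ppbp, all on the plus strand, and chr5:92328080-92328329 for Cxcl9 and chr5:92348890-92349139 for Cxcl10, both on the minus strand.
Cxcl1: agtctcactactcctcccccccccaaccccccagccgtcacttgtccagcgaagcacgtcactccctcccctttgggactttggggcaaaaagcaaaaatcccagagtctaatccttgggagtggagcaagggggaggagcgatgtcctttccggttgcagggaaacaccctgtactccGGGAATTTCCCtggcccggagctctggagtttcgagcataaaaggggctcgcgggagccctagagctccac
Cxcl2: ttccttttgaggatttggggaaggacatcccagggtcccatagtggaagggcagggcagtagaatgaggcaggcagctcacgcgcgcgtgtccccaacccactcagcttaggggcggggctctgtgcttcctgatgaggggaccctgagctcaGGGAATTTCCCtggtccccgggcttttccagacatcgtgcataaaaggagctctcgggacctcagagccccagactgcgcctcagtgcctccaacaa
Cxcl3: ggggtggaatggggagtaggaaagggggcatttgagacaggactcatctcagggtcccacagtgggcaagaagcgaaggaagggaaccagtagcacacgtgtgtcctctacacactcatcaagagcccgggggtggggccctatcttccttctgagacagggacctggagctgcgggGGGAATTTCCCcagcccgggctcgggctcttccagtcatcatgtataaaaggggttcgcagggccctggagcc
Ppbp: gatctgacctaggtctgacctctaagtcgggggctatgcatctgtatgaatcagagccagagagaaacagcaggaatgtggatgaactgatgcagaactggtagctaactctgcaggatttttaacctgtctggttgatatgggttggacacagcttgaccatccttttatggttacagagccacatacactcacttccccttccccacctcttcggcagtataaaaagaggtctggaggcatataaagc
Cxcl9: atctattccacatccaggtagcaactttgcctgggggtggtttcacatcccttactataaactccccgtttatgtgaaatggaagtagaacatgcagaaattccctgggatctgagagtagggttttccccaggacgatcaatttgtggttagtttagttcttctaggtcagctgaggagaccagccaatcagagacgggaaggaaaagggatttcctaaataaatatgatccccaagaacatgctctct
Cxcl10: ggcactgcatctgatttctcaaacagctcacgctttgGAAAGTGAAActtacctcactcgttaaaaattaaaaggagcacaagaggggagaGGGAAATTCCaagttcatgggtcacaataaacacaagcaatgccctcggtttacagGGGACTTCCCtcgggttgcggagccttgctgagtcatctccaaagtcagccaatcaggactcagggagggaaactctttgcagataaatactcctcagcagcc

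Cxcl1, Cxcl2 and Cxcl3 hold the same run, GGGAATTTCCC, which matches the kappaB consensus once on each strand with a shift of 1 base. It begins 71, 97 and 73 bases before the start site. Cxcl10 holds 2 kappaB matches and 1 ISRE match, and no match to either motif was found in the windows of Ppbp and Cxcl9. RefSeq windows were at hand for 9 of the 10 members. Cxcl14 had 1 ISRE match and 1 match to the gamma-activated sequence TTCNNNGAA, which reads the same on both strands. Ppbp, Pf4, Cxcl9 and Cxcl13 had none of the 3 motifs. Among 32851 promoters searched in the same way, 3.9% held the kappaB consensus, 2.98% the ISRE and 7.02% the gamma-activated sequence.

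In AMPK-KO TAMs, 9 of the 10 members passed an adjusted p of 0.05 (edgeR quasi-likelihood test, Benjamini-Hochberg over 17532 genes), where 21.1% of all genes tested did. Of these, 4 were higher (11.3% of all genes) and 5 lower (9.78% of all genes). The ligands that draw neutrophils and Pf4 fell, while the Cxcr3 ligands, Cxcl16 and Cxcl14 rose. With an absolute log2 fold change above 1 as well, 5 members passed (3.34% of all genes), of which Cxcl9 and Cxcl14 were higher (2.05%) and Cxcl1, Pf4 and Ppbp lower (1.28%). The median log2 fold change over the members was -0.33, against -0.0037 over all genes tested. Samples of the groups did not overlap for the same number of members, 9, against 37.2% of all genes (4 higher against 18.8%, 5 lower against 18.4%).

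**Figure D1:**
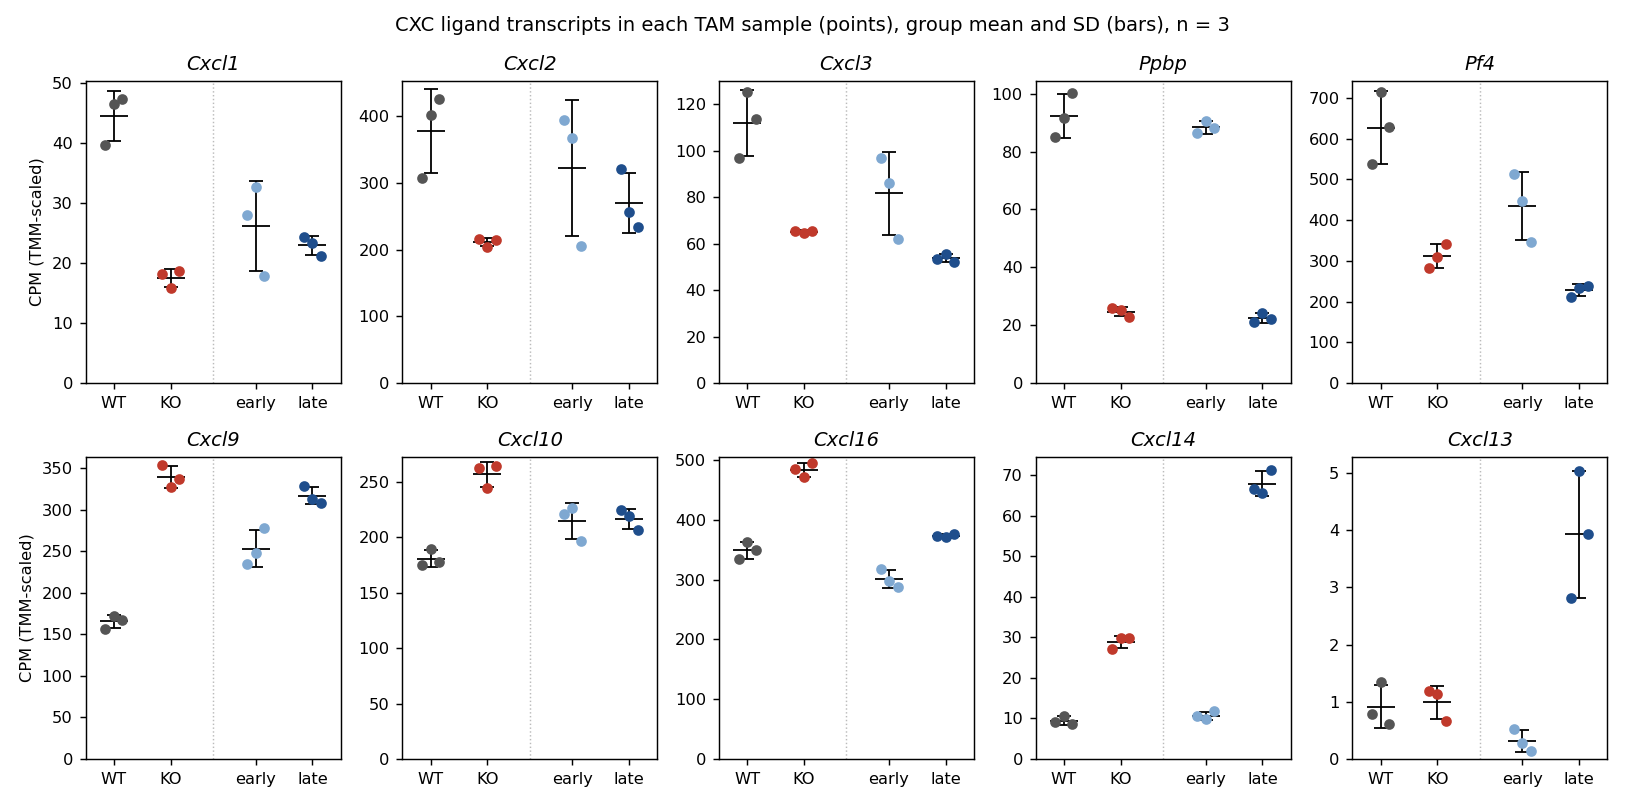
CPM of each CXC ligand in every sample (points), with the group mean and SD (bars, n = 3), for WT and AMPK-KO in the first table and early-stage and late-stage in the second. Ppbp stood near 92.4 and 88.4 CPM in WT and early-stage samples and near 24.8 and 22.6 CPM in AMPK-KO and late-stage samples.

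Cxcl1 was at 39.6, 46.4 and 47.3 CPM in WT and at 18.1, 15.8 and 18.7 CPM in AMPK-KO samples. Every AMPK-KO sample lay below every WT sample, a log2 fold change of -1.34 ± 0.09 (SE) with an adjusted p of 5.33e-06. Cxcl2, the highest in CPM of Cxcl1, Cxcl2 and Cxcl3, was at 307, 402 and 425 CPM in WT and at 216, 204 and 215 CPM in AMPK-KO samples. The WT samples were more widely spread (SD 62.7 against 6.35 CPM), and Cxcl2 still fell without overlap, by 0.84 on the log2 scale (SE 0.10, adjusted p = 2.1e-04). Cxcl3 went from 96.9, 125 and 114 CPM to 65.2, 64.4 and 65.6 CPM. It too fell without overlap, by 0.78 on the log2 scale (SE 0.08, adjusted p = 9.25e-05).

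Ppbp encodes a platelet protein that is processed to a neutrophil attractant. It was at 85.1, 91.6 and 100.4 CPM in WT and at 25.9, 25.4 and 23.0 CPM in AMPK-KO samples. This was the largest decrease among the members, with a log2 fold change of -1.90 ± 0.08 (SE) with an adjusted p of 2.21e-07. Pf4 was at 537, 715 and 629 CPM in WT and at 282, 311 and 341 CPM in AMPK-KO samples. All AMPK-KO samples were lower, with a log2 fold change of -1.01 ± 0.10 (SE) with an adjusted p of 4.99e-05. None of the 5 platelet markers tested passed the threshold in this comparison. Leaving out Itgb3, an integrin that macrophages also make, the remaining 10 platelet markers summed to 33 to 173 counts per sample over both tables, with Gp6 at 0 in 8 of 12 samples, beside 17788 to 51634 counts of Pf4 and 1773 to 8184 counts of Ppbp.

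Cxcl9 was at 157, 172 and 167 CPM in WT and at 354, 327 and 337 CPM in AMPK-KO samples. It rose without overlap (2.05-fold, log2 fold change 1.04, SE 0.05, adjusted p = 7.32e-07). Cxcl10 went from 175, 190 and 178 CPM to 262, 244 and 265 CPM. Cxcl10 rose less, by 0.51 on the log2 scale (SE 0.05, adjusted p = 8.38e-05), again without overlap. The ratio of Cxcl9 to Cxcl10 CPM was accordingly 0.898 to 0.939 in WT and 1.27 to 1.35 in AMPK-KO samples. T cell markers (5 of 5) and NK cell markers (5 of 5) were also higher in AMPK-KO samples, with summed levels of 52.2 to 67.2 against 103 to 105 CPM and of 33.2 to 41.6 against 92.5 to 97.5 CPM, and their part in the Cxcl9 and Cxcl10 result was not tested.

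Cxcl16 was at 335, 362 and 350.2 CPM in WT and at 485, 472 and 495 CPM in AMPK-KO samples. It rose by a log2 fold change of 0.47 ± 0.05 (SE) with an adjusted p of 5.29e-05 with no overlap. Cxcl14 was at 9.15, 10.6 and 8.49 CPM in WT and at 27.0, 29.7 and 29.8 CPM in AMPK-KO samples. It had the largest increase among the members, 3.06-fold (log2 fold change 1.61, SE 0.10, adjusted p = 3.02e-06). Fibroblast markers, of which 6 of 7 were higher and 1 lower, summed to 711 to 743 CPM in WT and 818 to 898 CPM in AMPK-KO samples, and keratinocyte markers stayed under 1.51 CPM in both, with Krt1 and Krt15 at 0 in all samples. Their part in the Cxcl14 result was not tested. Cxcl13 had 57, 97 and 50 counts in WT and 87, 91 and 53 counts in AMPK-KO samples, so the groups overlapped, and its log2 fold change of 0.11 (SE 0.39) did not pass the test (adjusted p = 0.879).

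**Figure D2:**
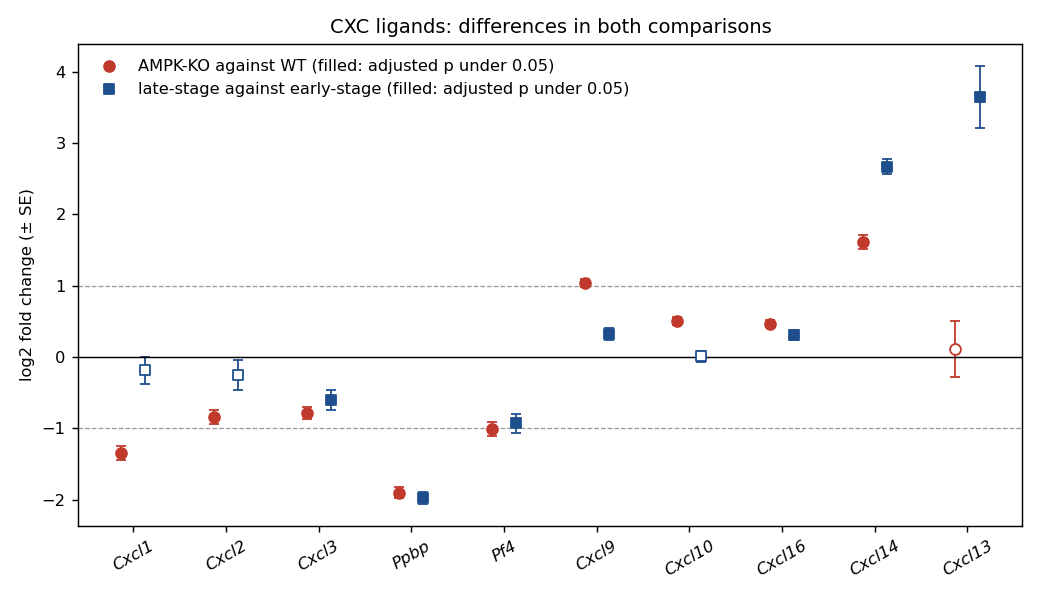
Log2 fold change of each CXC ligand, with its SE, in AMPK-KO against WT (circles) and late-stage against early-stage TAMs (squares). Filled symbols passed an adjusted p of 0.05, and dashed lines mark a log2 fold change of 1 in either direction. Cxcl14 and Cxcl13 reached 2.67 and 3.65 in late-stage TAMs.

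Between tumor stages, 7 of the 10 members passed the same threshold in the second table, where 9.18% of 17630 genes did. Of these, 4 were higher (4.31% of all genes) and 3 lower (4.88% of all genes). With an absolute log2 fold change above 1 as well, 3 members passed (1.87% of all genes), of which Cxcl13 and Cxcl14 were higher (0.601%) and Ppbp lower (1.26%). The groups did not overlap for 7 members, against 31.2% of all genes (4 higher and 3 lower, each against 15.6%). The count of members fell to 4 without early-stage replicate 2 or any 1 late-stage replicate, was 7 without early-stage replicate 1 and 9 without early-stage replicate 3, and the count over all genes, 1619, ran from 653 without late-stage replicate 2 to 2835 without early-stage replicate 1. The median log2 fold change was -0.09 over the members and 0.0027 over all genes. Cxcl14, Cxcl13, Ppbp and Pf4 moved most.

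Cxcl14 was at 10.5, 9.74 and 11.7 CPM in early-stage and at 66.4, 65.6 and 71.3 CPM in late-stage samples. The late-stage samples lay far above, with a 6.37-fold change (log2 fold change 2.67, SE 0.10, adjusted p = 1.67e-06). Fibroblast markers went the other way, with 4 of 7 lower. They summed to 949.7 to 1013 CPM in early-stage and 445 to 608 CPM in late-stage samples. The part of fibroblasts in the Cxcl14 result was not tested. Cxcl13 had only 43, 21 and 12 counts in early-stage and 236, 403 and 325 counts in late-stage samples. Its log2 fold change was 3.65 ± 0.44 (SE) with an adjusted p of 8.82e-04 at a mean of 3.93 CPM in late-stage TAMs. B cell markers (3 of 5 higher, summed levels 37.3 to 41.8 against 57.5 to 82.9 CPM) moved with it, and their part was not tested.

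Ppbp went from 86.3, 90.7 and 88.1 CPM in early-stage to 21.1, 24.3 and 22.2 CPM in late-stage samples. The fall of 1.97 on the log2 scale (SE 0.08, adjusted p = 2.14e-06) left no overlap. Pf4 was at 513, 446 and 346 CPM in early-stage and at 212, 234 and 239 CPM in late-stage samples. It fell by 0.93 on the log2 scale (SE 0.13, adjusted p = 0.00199), with early-stage replicate 3 nearest to the late-stage samples. None of 4 platelet markers tested passed the threshold.

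Cxcl3 was at 96.6, 86.2 and 62.0 CPM in early-stage and at 53.4, 55.7 and 52.3 CPM in late-stage samples, a log2 fold change of -0.60 ± 0.14 (SE) with an adjusted p of 0.0270. Cxcl9 was at 235, 247 and 278 CPM in early-stage and at 329, 313 and 309 CPM in late-stage samples, a log2 fold change of 0.32 ± 0.08 (SE) with an adjusted p of 0.0320. Cxcl16 was at 318, 298 and 288 CPM in early-stage and at 373, 371 and 377 CPM in late-stage samples, a log2 fold change of 0.31 ± 0.07 (SE) with an adjusted p of 0.0197. These 3 genes did not overlap between stages, but each lost its call when early-stage replicate 2 or any single late-stage replicate was left out (adjusted p from 0.0748 to 0.141).

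Cxcl1 (27.9, 32.6 and 17.9 CPM against 24.4, 23.3 and 21.2 CPM) and Cxcl2 (394, 368 and 206 CPM against 321, 257 and 234 CPM) overlapped between stages and did not pass the test (adjusted p = 0.597 and 0.512). In both, early-stage replicate 3 was the lowest sample of all, and without it Cxcl1 and Cxcl2 passed at -0.40 and -0.50 on the log2 scale (adjusted p = 0.0454 and 0.0264). Cxcl10 was at 221, 227 and 197 CPM in early-stage and at 225, 219 and 207 CPM in late-stage samples. Its difference of 0.02 on the log2 scale was below the spread between replicates (adjusted p = 0.932).

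To compare levels between genes, CPM were divided by the length of the longest protein-coding transcript in GENCODE M21. Pf4 was the most abundant CXC transcript in all 4 groups, at 1066 ± 152 CPM per kb in WT, 529 ± 50.0 in AMPK-KO, 739.7 ± 143 in early-stage and 389 ± 25.0 in late-stage TAMs (SD, n = 3). In WT TAMs, Cxcl2 came next (203 ± 33.7), followed by Cxcl10 (134 ± 5.89) and Cxcl16 (129 ± 5.14), which did not differ beyond their spread. In AMPK-KO TAMs the next were Cxcl10 (189.96 ± 8.20) and Cxcl16 (179 ± 4.22), whose samples overlapped, and then Cxcl9 (117 ± 4.64) and Cxcl2 (114 ± 3.41), which overlapped too. In late-stage TAMs, Cxcl10 (160.4 ± 6.73), Cxcl2 (145 ± 24.2) and Cxcl16 (138 ± 1.12) lay within the spread of Cxcl2. The length was chosen after levels under both lengths had been seen, because the merged exons of Cxcl1, Cxcl2, Cxcl3 and Cxcl10 cover the whole gene. With merged exons Pf4 stayed first in all 4 groups, while the lower ranks changed, Cxcl10 moving from rank 2 to rank 5 in late-stage TAMs.

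As a share of all CXC ligand CPM per kb, Pf4 made up 57.8% ± 1.73 in WT and 42.0% ± 2.44 in AMPK-KO TAMs, and 50.1% ± 2.21 in early-stage and 35.9% ± 2.54 in late-stage TAMs. The Cxcr3 ligands (Cxcl9, Cxcl10 and Cxcl11) made up 10.5% ± 0.837 in WT, 24.8% ± 1.25 in AMPK-KO, 17.2% ± 2.60 in early-stage and 25.0% ± 0.728 in late-stage TAMs. The ligands that draw neutrophils, Cxcl5 included, made up 24.3% ± 1.32, 17.6% ± 0.801, 24.6% ± 1.95 and 22.5% ± 2.15 in the same order. The total was 1843 ± 215 CPM per kb in WT, 1258 ± 53.1 in AMPK-KO, 1471 ± 228 in early-stage and 1083 ± 10.4 in late-stage TAMs. The summed Cxcr3 ligands were at 192 ± 8.53, 311 ± 11.8, 248 ± 6.08 and 271 ± 10.1 CPM per kb, and the summed ligands that draw neutrophils at 448 ± 57.1, 221 ± 5.45, 365 ± 79.0 and 244 ± 25.2 CPM per kb. The shares therefore moved with the total as well as with each class, and neither shares nor sums were tested. With merged exons the Pf4 shares were 59.7%, 43.4%, 51.5% and 36.7%, and the Cxcr3 ligand shares 9.40%, 23.0%, 15.7% and 23.4%.

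**Figure D3:**
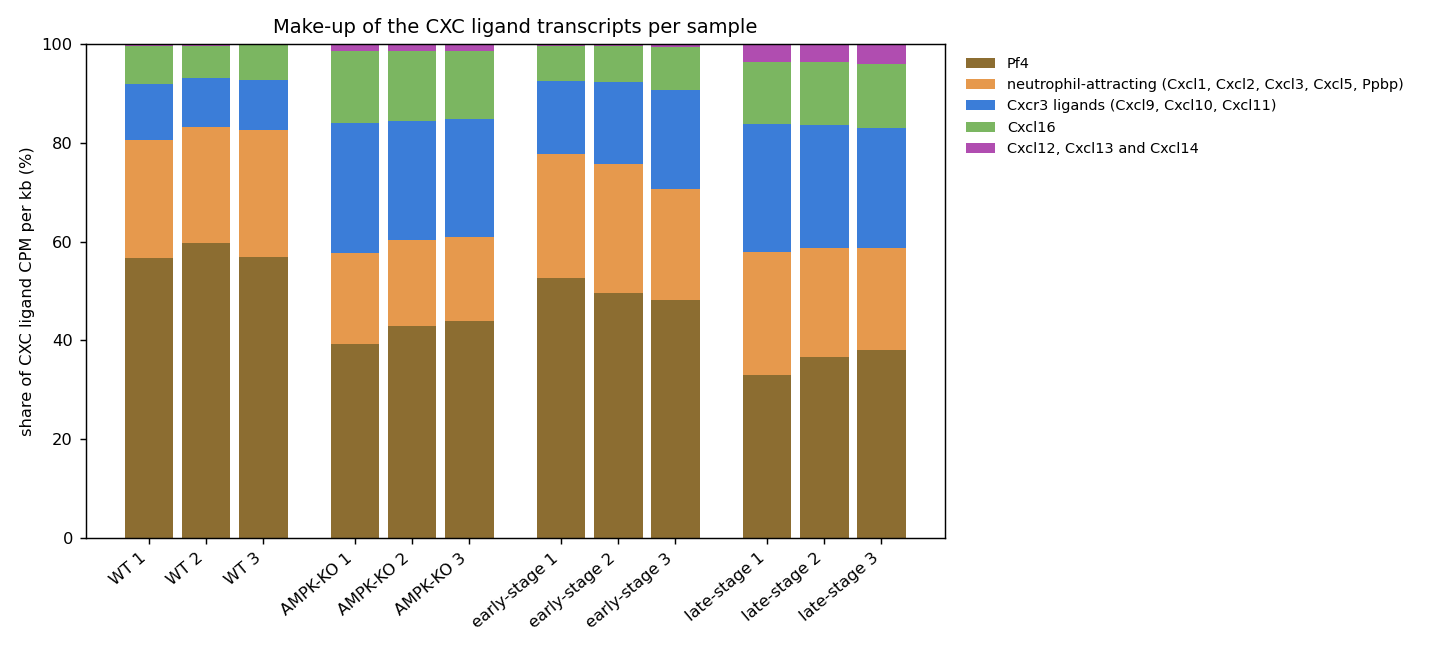
Share (%) of each class of CXC ligand in the summed CXC CPM per kb, 1 bar per sample. Pf4 took the largest share in every sample, at a mean of 57.8% in WT and 35.9% in late-stage TAMs.

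The other CXC ligands were low. Cxcl5, a neighbour of Ppbp that also draws neutrophils, had a log2 fold change of -0.57 in AMPK-KO TAMs (adjusted p = 0.0962) and fell by 1.14 on the log2 scale in late-stage TAMs (adjusted p = 0.0191). Cxcl11, another Cxcr3 ligand that the annotation types as a polymorphic pseudogene, had means of 2.21 CPM in WT and 5.92 CPM in AMPK-KO TAMs, an increase of 1.42 on the log2 scale (adjusted p = 4.69e-04), and of 3.20 CPM in early-stage and 1.69 CPM in late-stage TAMs, where it fell by 0.92 (adjusted p = 0.0220). Cxcl12, the ligand of Cxcr4, likewise rose by 0.98 and fell by 1.12 on the log2 scale (adjusted p = 0.00386 and 0.0161). Cxcl15 had 0 counts in all 12 samples, which allows up to 3 counts per sample, and Cxcl17 had at most 6 counts.

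Within 500 kb of the cluster from Cxcl5 to Cxcl2, 5 of 12 other protein-coding genes were tested in AMPK-KO TAMs, and Areg, an EGF receptor ligand, was lower (log2 fold change -0.54, adjusted p = 0.0367). Of the 7 tested between stages none passed. Around Cxcl9 to Cxcl11, 12 of 16 genes were tested in AMPK-KO TAMs and 3 were higher, namely Naaa (0.82), Sdad1 (0.30) and G3bp2 (0.33 on the log2 scale), while Naaa was lower in late-stage TAMs (-0.27, adjusted p = 0.0353). The shares over all genes in AMPK-KO TAMs were 11.3% (higher) and 9.78% (lower), and with so few neighbours these counts do not set either region apart. Cxcl10 and Cxcl11 lie inside Art3 on the opposite strand. Strand use in counting is not given in the sources used here, and Art3 itself did not pass in either comparison (adjusted p = 0.710 and 0.749).

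**Figure D4:**
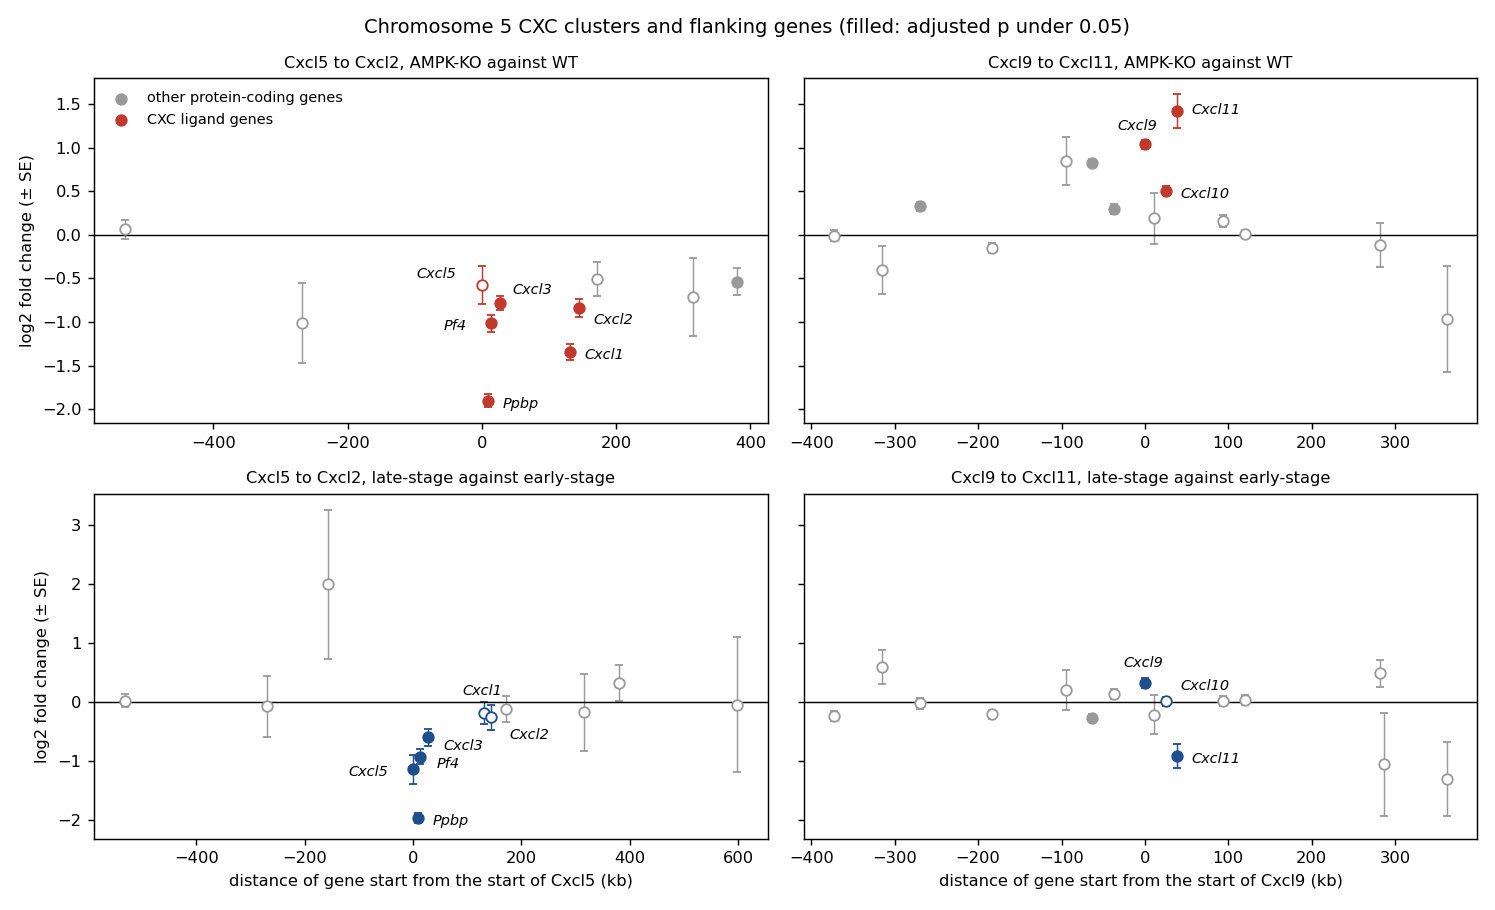
Log2 fold change with SE of the CXC ligand genes (colored) and of other protein-coding genes (grey) against the distance of the gene start from the start of Cxcl5 or Cxcl9, in kb. Filled symbols passed an adjusted p of 0.05. The tested ligand genes from Cxcl5 to Cxcl2 all lay below 0 in AMPK-KO TAMs, from -0.57 (Cxcl5, which did not pass) to -1.90. They lay below 0 in late-stage TAMs too, from -0.19 to -1.97. Among the flanking genes tested in AMPK-KO TAMs, Afp, Ereg, Areg and Mthfd2l were also below 0 (-1.01, -0.71, -0.54 and -0.50), and Ankrd17 was above it (0.06).

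Of the receptors, Cxcr6, which binds Cxcl16, was at 7.59, 6.63 and 7.57 CPM in WT and at 22.1, 24.6 and 24.8 CPM in AMPK-KO samples, a 3.28-fold increase (log2 fold change 1.71, adjusted p = 1.55e-06). Cxcr3, which binds Cxcl9 and Cxcl10, averaged 7.47 CPM in WT and 11.1 CPM in AMPK-KO samples and rose by 0.57 on the log2 scale (adjusted p = 0.00616). Both are receptors of T cells and NK cells, whose markers moved with them. Cxcr2, the receptor of the ligands that draw neutrophils, had 0 to 20 counts in WT and 35 to 51 in AMPK-KO samples and did not pass (adjusted p = 0.123). Cxcr5, the receptor of Cxcl13, went from 2.05 to 1.46 CPM without passing (adjusted p = 0.199), whereas 4 of 5 B cell markers were lower in AMPK-KO TAMs, with log2 fold changes of -3.10 for Ms4a1 to -6.47 for Pax5, and Cd79b was higher (0.39). Between stages Cxcr2, Cxcr3, Cxcr5 and Cxcr6 did not pass (adjusted p from 0.175 to 0.854), while Cxcr4 fell by 0.39 and the scavenger receptor Ackr3 by 1.21 on the log2 scale (adjusted p = 0.0141 and 0.0194). Cxcr1 and Ackr1 were too low to be tested.

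Genes that induce CXC ligands or act on them were read from lists, whose counts stand beside the shares of all genes tested: AMPK-KO TAMs had 11.3% higher and 9.78% lower, and late-stage TAMs 4.31% higher and 4.88% lower. Of 15 interferon pathway genes, 10 were higher and none lower in AMPK-KO TAMs, among them Irf1 (log2 fold change 1.06), Socs1 (1.498) and Irf8 (0.40), with a list median of 0.38. Ifng, which encodes interferon-gamma, was higher by 1.76 in AMPK-KO TAMs (adjusted p = 1.48e-04). In late-stage TAMs Ifng was higher (0.50, adjusted p = 0.0274) and its receptor chain Ifngr1 lower (-0.24), with a median of -0.16. Among 15 NF-kappaB and inflammatory genes, AMPK-KO TAMs had 9 at a higher and 2 at a lower level. Il1b (1.05), Nfkbie (0.67), Nfkb1 (0.40) and Myd88 (0.42) had the smallest adjusted p of the first, and the second were Nfkbia (-0.32) and Tnf (-0.29). In late-stage TAMs Nfkb1 was higher (0.26) and Il1b (-1.12), Nfkbie (-0.52) and Il1a (-0.67) were lower.

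Of 7 genes of shedding, cleavage and mRNA decay, AMPK-KO TAMs had more Srgn (0.36), Dpp4 (0.79), Adam17 (0.19) and Zc3h12a (0.23) and less Zfp36 (-0.21). Dpp4 encodes a peptidase that trims Cxcl9 and Cxcl10, and Zfp36 a protein that destabilizes cytokine mRNAs. Zfp36l1 (-0.47), Srgn (-0.52) and Dpp4 (-0.59) were lower in late-stage TAMs. Of 4 lymphotoxin and lymphoid chemokine genes tested, Ccr7 (0.35), Ltb (0.45) and Lta (1.11) were higher in AMPK-KO TAMs, and Ccr7 (0.38) and Ltb (0.56) in late-stage TAMs.

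**Figure D5:**
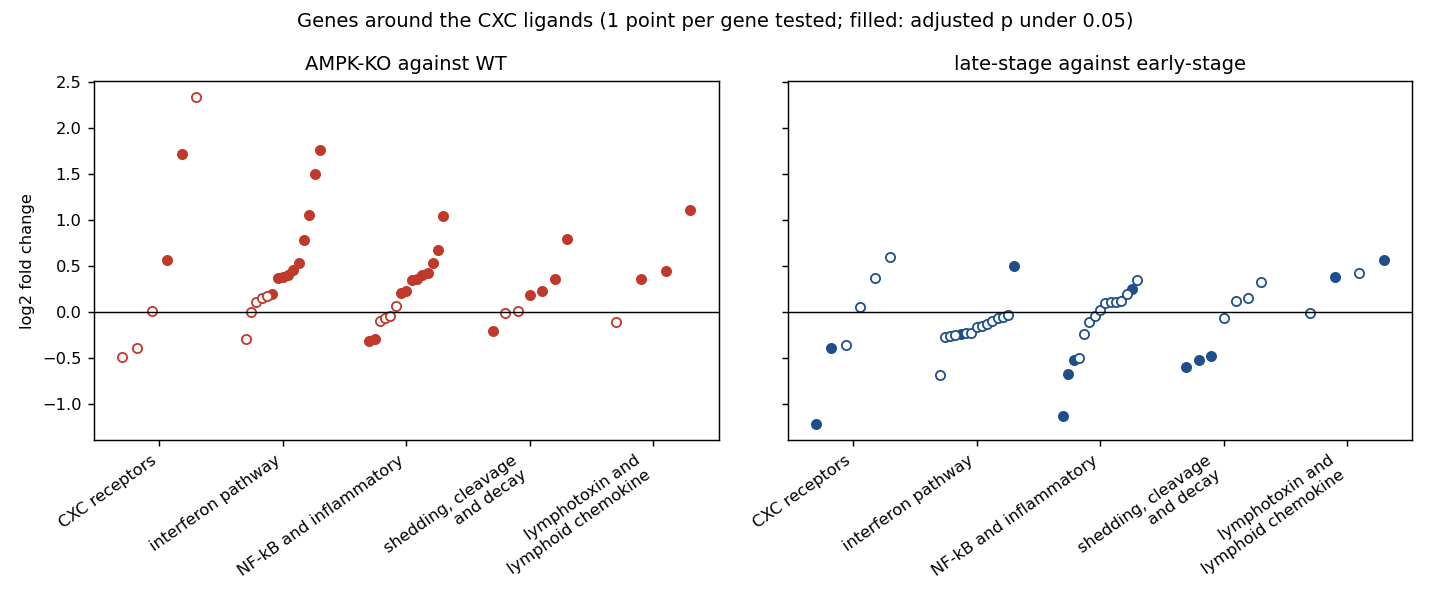
Log2 fold change of each tested gene of 5 lists around the CXC ligands (1 point per gene, filled where the adjusted p was under 0.05), in AMPK-KO against WT (left) and late-stage against early-stage TAMs (right). Of the 15 interferon pathway genes, 10 were higher in AMPK-KO TAMs and 1 in late-stage TAMs.

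The remaining marker lists also moved. Neutrophil markers were higher in AMPK-KO TAMs for 4 of 6 tested (Csf3r, Mmp8, S100a8 and S100a9). Their summed CPM (111.6 to 119 against 183 to 186) came mostly from Csf3r and Mmp8, with Ly6g and Ngp each at 0 in 11 of 12 samples. Monocyte markers (3 of 5) and dendritic cell markers (5 of 5) were higher in AMPK-KO TAMs, and melanoma markers (6 of 7) lower. Endothelial markers were mixed by gene (2 higher, 1 lower), while their summed CPM were 56.4 to 68.7 in WT and 124 to 128 in AMPK-KO samples. In late-stage TAMs, 4 of 5 monocyte, 4 of 5 NK cell, 5 of 7 melanoma, 2 of 5 neutrophil, 1 of 5 dendritic cell and 1 of 5 endothelial markers were lower, and 2 of 5 T cell markers higher. Their part in the levels of the CXC ligands was not tested.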

How the data were processed

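Bulk RNA-seq libraries of 12 TAM samples were read from 2 count tables, 1 per experiment, with 55401 gene rows each. The authors deposited raw read counts per gene, unnormalized. Their methods and processing notes name FastQC, HISAT2, featureCounts and DESeq2. The labels give mm10 (GRCm38), whereas the study's methods write GRCh38 for the mouse genome, and GRCm38 was used here. Versions, strand setting and handling of multimapped reads are not given in the sources used here, and reads shared by near-identical genes may be split. Of the identifiers, 54349 matched GENCODE M21 with their version.

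Each table was fitted alone with edgeR 4.0.16 (R 4.3.3, limma 3.58.1): filterByExpr, TMM factors, quasi-likelihood test, two-sided, Benjamini-Hochberg over all genes tested. Adjusted p under 0.05 was called. SE is the absolute log2 fold change over the square root of F, and CPM are TMM-scaled. The procedure was also run on counts simulated from its own fitted means and spread. Such counts cannot check whether that model holds for these samples, and no conclusion is drawn from them. CPM per kb used the longest protein-coding transcript, chosen after both lengths had been seen. Replicates differed beyond sampling noise in all 12 within-group pairs (chi-square per degree of freedom 9.76 to 133). Totals of 71019494 to 84470374 counts limit counting error, not the spread between samples, and groups of 3 limit the tests.

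The members and all lists were chosen with earlier results of these data known. Named genes were all members, every receptor of a member, up to 4 called genes of each list and direction by smallest adjusted p, and label checks. Some genes that this rule names are not reported here. Cxcl5, Cxcl11 and Cxcl12, neighbours of the clusters, Ifng in AMPK-KO TAMs and single markers were named beside them after their values had been seen. Alternatives were DESeq2 1.42.0, scaling by RLE or by the upper quartile, other count filters, a replicate block, and leaving out each replicate. Python 3.11.15, pandas 2.3.3 and matplotlib 3.10.9 were used for summaries and plots.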

Additional observations from a re-analysis of the deposited data

How the results depend on the processing

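In AMPK-KO against WT, 9 members passed under every scaling, filter, block and left-out replicate and with the DESeq2 adjusted p. The study's screen (DESeq2 unadjusted p with an absolute log2 fold change above 1) was rerun here. It kept 5 members and 1140 genes, against 3693 genes in the report. The paper gives a smaller number of differentially expressed genes for this comparison, and the reason for the gap was not tested. Leaving out a replicate from the report's own fit gave 2414 to 4039 genes (lowest without WT replicate 3). Between stages that screen kept 3 members and 997 genes, against 1619 genes. The DESeq2 adjusted p called 2447 genes, and no filter called 936 genes and 5 members (Cxcl3 and Cxcl9 lost). Leaving out a replicate gave 653 to 2835 genes and 4 to 9 members: 4 without early-stage replicate 2 or any late-stage replicate, 9 without early-stage replicate 3. Cxcl14, Cxcl13, Ppbp and Pf4 kept their calls in all of these fits that used an adjusted p.

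Same-numbered replicates did not deviate together (correlations from -0.0039 to 0.0423), so the numbers were not taken to pair samples. With the replicate number as a block, 3862 genes and 9 members passed in AMPK-KO against WT, and 1417 genes and 6 members between stages (Cxcl9 adjusted p = 0.0571).

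Direction turned for 3 values that did not pass in the report, of which Cxcl1 passed without early-stage replicate 3 (adjusted p = 0.0454). They were Cxcl13 in AMPK-KO TAMs (-0.11 without WT replicate 3, -0.03 without AMPK-KO replicate 1), Cxcl1 between stages (0.0017 without early-stage replicate 2) and Cxcl10 between stages (-0.0459 without early-stage replicate 3, -0.01 without late-stage replicate 1). Over all left-out replicates these values ran from -0.11 to 0.50 for Cxcl13, from -0.40 to 0.0017 for Cxcl1 and from -0.0459 to 0.0542 for Cxcl10. The causes were not tested. Merged exon lengths, an alternative added after seeing the data, moved shares of CXC ligands but kept Pf4 first. Depth limits Cxcl13, Cxcr2, Cxcl15 and Cxcl17.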

Other observations

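The 2 tables were normalized separately, so levels across them were set side by side without a test. WT and late-stage samples were both taken at day 15, yet Ppbp was at 92.4 CPM in WT, 88.4 CPM in early-stage and 22.6 CPM in late-stage TAMs. Cxcl14 was at 9.43, 10.6 and 67.8 CPM in the same order, and Cxcl13 at 0.916, 0.312 and 3.93 CPM. The samples also differed between tables in Lyz2 and in Y-linked counts, and their part in these values was not tested.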
